A study of Mus musculus with 60 samples.

Results

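Microglia of the injured cortex that carried a tdTomato label (Tdt+) were compared with unlabelled microglia of the same cortex (Tdt-) at day 28 after neonatal stroke. Members were chosen by sample label, as the Tdt+ and Tdt- libraries of the injured side at day 28 without lipopolysaccharide (LPS). They are 8 of the 60 samples of the series, with 4 Tdt+ and 4 Tdt- libraries numbered 1 to 4 in each group. All 8 came from Spp1-CreER:R26-Tdtomato mice at postnatal day 34, and all had a stroke. Each library was made by a modified SMART-Seq2 protocol, a full-length method for small cell numbers, from 2000 flow-sorted microglia.

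The recombinase is driven from Spp1, the gene of the secreted phosphoprotein osteopontin, and acts only while its inducer is present, so the label records Spp1 expression in that window and persists in the cell. A Tdt- cell may therefore have expressed Spp1 outside the window. When the inducer was given, whether libraries of 1 number came from 1 animal, and whether the 4 replicates of a group were separate animals is not given in the sources used here, so the p-values measure the spread between these samples. Values are TPM, a transcript abundance corrected for length and scaled to 1 total in every library, and TPM keeps no read depth, so depth is unknown.

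Microglia are the resident macrophages of the brain. In the healthy cortex they express a homeostatic set of genes, among them the ADP receptor P2ry12 and the membrane protein Tmem119. After injury or in degeneration they can take up a disease-associated microglia (DAM) programme in which homeostatic genes decline and genes for lipid handling, lysosomes and phagocytosis increase, with Apoe, Lpl, Clec7a, Axl, Cst7 and Spp1 among its best known members and the receptor Trem2 required for its full form in mouse models. Several of the same genes mark a developmental microglial state in the early postnatal white matter.

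The libraries matched the sorted cell type in both groups. The summed level of 10 microglia identity markers was 53220 to 58312 TPM in Tdt+ libraries and 55198 to 57291 TPM in Tdt- libraries. Erythroid markers were at 0 throughout. Neutrophil markers, 10 of 12 of them at 0, summed to 268 to 317 TPM in Tdt+ and 253 to 323 TPM in Tdt- libraries, nearly all from Csf3r. T and NK cell markers, 8 of 14 of them at 0, summed to 23.2 to 33.05 TPM in Tdt+ and 23.9 to 45.9 TPM in Tdt- libraries, mostly from Il7r. Neuron markers summed to 0.55 to 2.90 TPM in Tdt+ and 0.72 to 2.73 TPM in Tdt- libraries. Border-associated macrophage markers summed to 9.54 to 26.9 TPM in Tdt+ and 19.8 to 41.4 TPM in Tdt- libraries, with Cd163, F13a1, Ms4a7, Clec4n and Cd209f at 0, and monocyte markers to 11.0 to 30.2 TPM in Tdt+ and 10.4 to 24.8 TPM in Tdt- libraries. B cell markers, nearly all from Ighm and with Ms4a1, Igkc and Jchain at 0, summed to 562 to 789 TPM in Tdt+ and 582 to 765 TPM in Tdt- libraries, astrocyte markers to 98.6 to 168 TPM in Tdt+ and 104 to 144 TPM in Tdt- libraries, and oligodendrocyte markers to 146 to 156 TPM in Tdt+ and 117 to 162 TPM in Tdt- libraries. Endothelial markers were the 1 summed list whose groups did not overlap, at 13.5 to 15.0 TPM in Tdt+ and 18.0 to 23.4 TPM in Tdt- libraries. Pecam1, an adhesion molecule of endothelium and of some leukocytes, made up most of that sum, while the endothelial genes Cldn5, Ly6c1, Slco1a4 and Tek were at 0. The part of these markers in the results was not tested. The number of genes at 1 TPM or more was 11939 to 12169 per library. Correlations of log2 levels were 0.933 to 0.938 between Tdt+ libraries, 0.929 to 0.939 between Tdt- libraries and 0.929 to 0.953 across the 2 groups, so no library stood apart and labelled libraries were as like unlabelled ones as like each other.

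The promoters of 3 genes are shown, those of the gene that drives the label (Spp1) and of the pair of DAM genes with the smallest p in the comparison (Apoe and Lyz2). Each window runs from 250 bases before to 50 bases after an annotated start in RefSeq on GRCm38.p6, taken at the start furthest upstream where several are listed, and is written 5′ to 3′ on the strand of the gene. Capitals mark GGAAGT, searched on both strands (ACTTCC on the other strand), the core letters bound by ETS factors such as PU.1, the factor needed for macrophage and microglial identity. The regions are chr5:104434861-104435160 on the plus strand for Spp1, chr7:19699139-19699438 on the minus strand for Apoe and chr10:117282223-117282522 on the minus strand for Lyz2. The span of Apoe reaches to chr7:19701310, further upstream than its window, so a start at that end was not searched.
Spp1: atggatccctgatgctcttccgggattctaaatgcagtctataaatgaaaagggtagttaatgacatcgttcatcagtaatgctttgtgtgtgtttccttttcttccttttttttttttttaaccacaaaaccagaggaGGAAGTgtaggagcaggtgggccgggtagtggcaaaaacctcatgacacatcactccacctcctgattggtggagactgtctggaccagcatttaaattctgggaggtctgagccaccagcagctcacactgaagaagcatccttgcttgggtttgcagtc
Apoe: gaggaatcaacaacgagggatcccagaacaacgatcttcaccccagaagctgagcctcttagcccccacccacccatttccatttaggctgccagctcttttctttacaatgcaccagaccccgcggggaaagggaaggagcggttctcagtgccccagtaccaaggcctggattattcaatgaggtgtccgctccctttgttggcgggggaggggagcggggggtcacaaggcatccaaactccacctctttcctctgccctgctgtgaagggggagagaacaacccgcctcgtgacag
Lyz2: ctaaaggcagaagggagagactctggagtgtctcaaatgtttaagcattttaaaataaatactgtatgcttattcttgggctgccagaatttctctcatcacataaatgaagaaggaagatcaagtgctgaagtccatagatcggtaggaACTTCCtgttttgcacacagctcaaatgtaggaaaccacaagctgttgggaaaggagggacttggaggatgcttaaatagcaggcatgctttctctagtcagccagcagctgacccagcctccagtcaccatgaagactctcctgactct
The letters were found once in the Spp1 window and once in the Lyz2 window, there on the other strand, and were not in this window of Apoe. Of 32851 promoter windows of the same length in the RefSeq set, 23.8% hold them, so a match is a description and no more.

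The comparison asks whether microglia with a history of Spp1 expression still differ from unlabelled neighbours 4 weeks after the injury. By limma, a linear model that shares variance between genes, on log2(TPM + 1) with replicate number as a block, 0 of 11943 genes tested passed an adjusted p (Benjamini-Hochberg) of 0.05, which is 0% of genes. At an unadjusted p under 0.05 there were 626 genes. Of all genes 2.44% met that mark as higher in Tdt+ and 2.8% as lower, the shares against which the counts for each list below stand. The median log2 difference (Tdt+ minus Tdt-) over all genes was -0.01, with 5811 genes above 0 and 6132 below. What follows gives the values of genes by function, and none of the single differences passed the adjusted test in the fit of all 8 libraries.

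Apoe, which encodes the main lipid carrier of the brain and lies at chr7:19696244-19701310, had the smallest p of all genes tested. Its level was 3412, 4987, 4773 and 3547 TPM in Tdt+ libraries 1 to 4, against 2808, 2280.4, 2222 and 2215 TPM in Tdt- libraries 1 to 4. All 4 Tdt+ libraries lay above all 4 Tdt- libraries, a separation that 1.02% of all genes tested showed in this direction. The group means were 4179.7 ± 815 TPM in Tdt+ and 2381 ± 286 TPM in Tdt- libraries (SD, n = 4 each), a log2 difference of 0.80 ± 0.12 (SE; 95% interval 0.54 to 1.06) with a limma p of 3.41e-05 and an adjusted p of 0.407. An exact two-sided permutation test of this 1 gene gave p = 0.0286, the smallest that 4 against 4 allows. Any gene whose groups do not overlap gets this value, so it adds nothing to the separation above. Apoe was also chosen with earlier results of these data known. Apoe passed only without the 2 libraries numbered 1, the pair with the smallest difference and the highest Tdt- level. There it was at 0.97 with an adjusted p of 0.00478 by limma. Without number 2, 3 or 4 it was at 0.69, 0.70 and 0.84, with adjusted p of 0.701, 0.912 and 0.384 by limma. For context, the 4 libraries of contralateral microglia held 1855 to 2964 TPM, a range that spans every Tdt- value and no Tdt+ value.

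Spp1 itself was low and scattered at day 28. It stood at 31.7, 1.3, 8.45 and 2.19 TPM in Tdt+ libraries 1 to 4, against 5.17, 2.77, 6.68 and 0.82 TPM in Tdt- libraries 1 to 4. The groups overlapped, and the high Tdt+ mean rested on library 1 alone. The log2 difference was 0.70 ± 0.49 (SE; 95% interval -0.39 to 1.79; limma adjusted p 0.932), and the exact two-sided permutation test gave p = 0.514 (4 against 4 libraries). Without Tdt+ library 1, in the fit with no block, it was -0.048. A difference in present Spp1 level between labelled and unlabelled cells was thus not detectable in these libraries.

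**Figure D1:**
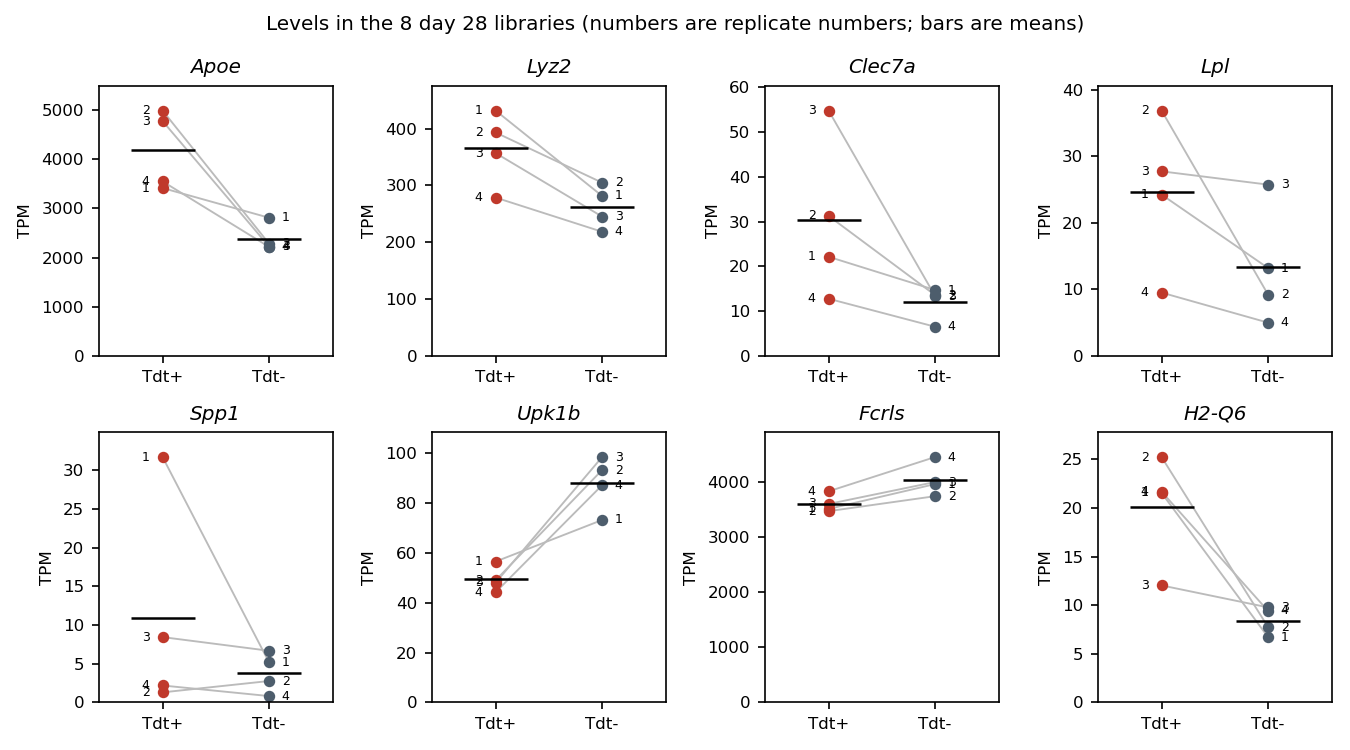
Level in TPM (vertical axes, each from 0) of 8 genes in the Tdt+ (left) and Tdt- (right) libraries, with lines joining libraries of 1 replicate number and bars at the group means. The Tdt+ libraries lie above all Tdt- libraries for Apoe (3412 TPM and over, against at most 2808 TPM) and H2-Q6 and below them for Upk1b, whereas Spp1 is high in Tdt+ library 1 only.

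Most DAM genes had positive differences. Of 31 genes on the list 30 were tested, and Gpnmb was not because it was too low. There were 25 above 0 and 5 below, with a median log2 difference of 0.10, against -0.01 over all genes. At an unadjusted p under 0.05, 7 members were higher and 0 lower, against 2.44% and 2.8% of all genes. In 9 members Tdt+ exceeded Tdt- in each of the 4 numbered pairs, and in 2 it was below in each, which 5.69% and 6.86% of all genes did. The median over the list was positive in each pair, at 0.17, 0.14, 0.08 and 0.12 for numbers 1 to 4. With no block the list median was 0.03 without Tdt- library 4 and 0.19 without Tdt+ library 4. The 7 members were Apoe, Lyz2, Fth1, Clec7a, Lpl, B2m and Axl.

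Lyz2, the lysozyme of macrophages, held 432, 393, 357 and 279 TPM in Tdt+ libraries 1 to 4, against 282, 305, 245 and 219 TPM in Tdt- libraries 1 to 4. The ranges overlapped through the low library Tdt+ 4, yet every pair went the same way. Its log2 difference was 0.47 ± 0.09 (SE, limma adjusted p 0.721). Fth1, the heavy chain of the iron store ferritin, averaged 2291 ± 334 TPM in Tdt+ and 1925 ± 290 TPM in Tdt- libraries (SD, n = 4 each), at 0.25 ± 0.05 on the log2 scale. Its 4 pairs gave nearly the same value, the tightest agreement among the 7. Clec7a, the beta-glucan receptor dectin-1, held 22.2, 31.3, 54.8 and 12.8 TPM in Tdt+ libraries 1 to 4, against 14.7, 13.6, 13.4 and 6.52 TPM in Tdt- libraries 1 to 4. It was the DAM member with the largest log2 difference, 1.13 ± 0.27 (limma adjusted p 0.827), and replicate number 4 was the lowest of its group on both sides. Lpl, the lipase that frees fatty acids from lipoproteins, held 24.3, 36.9, 27.8 and 9.52 TPM in Tdt+ libraries 1 to 4 against 13.2, 9.21, 25.8 and 5.00 TPM in Tdt- libraries 1 to 4, at 0.91 ± 0.30. Axl, a receptor for dying cells, was at 0.85 ± 0.35 and higher in Tdt+ in 3 of 4 pairs, with number 1 the exception. The cathepsin inhibitor Cst7 averaged 33.4 ± 8.12 TPM in Tdt+ and 24.3 ± 3.57 TPM in Tdt- libraries (SD, n = 4 each), higher in 4 of 4 pairs.

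Other DAM members had values near 0 or wide spreads. Trem2, the lipid-sensing receptor of the programme, was at a log2 difference of 0.07 and its adaptor Tyrobp at 0.01. The protease genes Ctsb and Ctsd were at 0.04 and -0.03, the phagocyte marker Cd68 at 0.08 and the integrin Itgax (CD11c) at 0.26, with p from 0.265 to 0.90 for these genes by limma before adjustment. Lgals3, the lectin galectin-3, held 2.43, 11.2, 31.4 and 0.84 TPM in Tdt+ libraries 1 to 4, against 7.38, 4.77, 6.93 and 0 TPM in Tdt- libraries 1 to 4, so its spread within Tdt+ exceeded the difference. The protease inhibitor Serpine2 went the other way in every pair, at -0.14 ± 0.06.

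**Figure D2:**
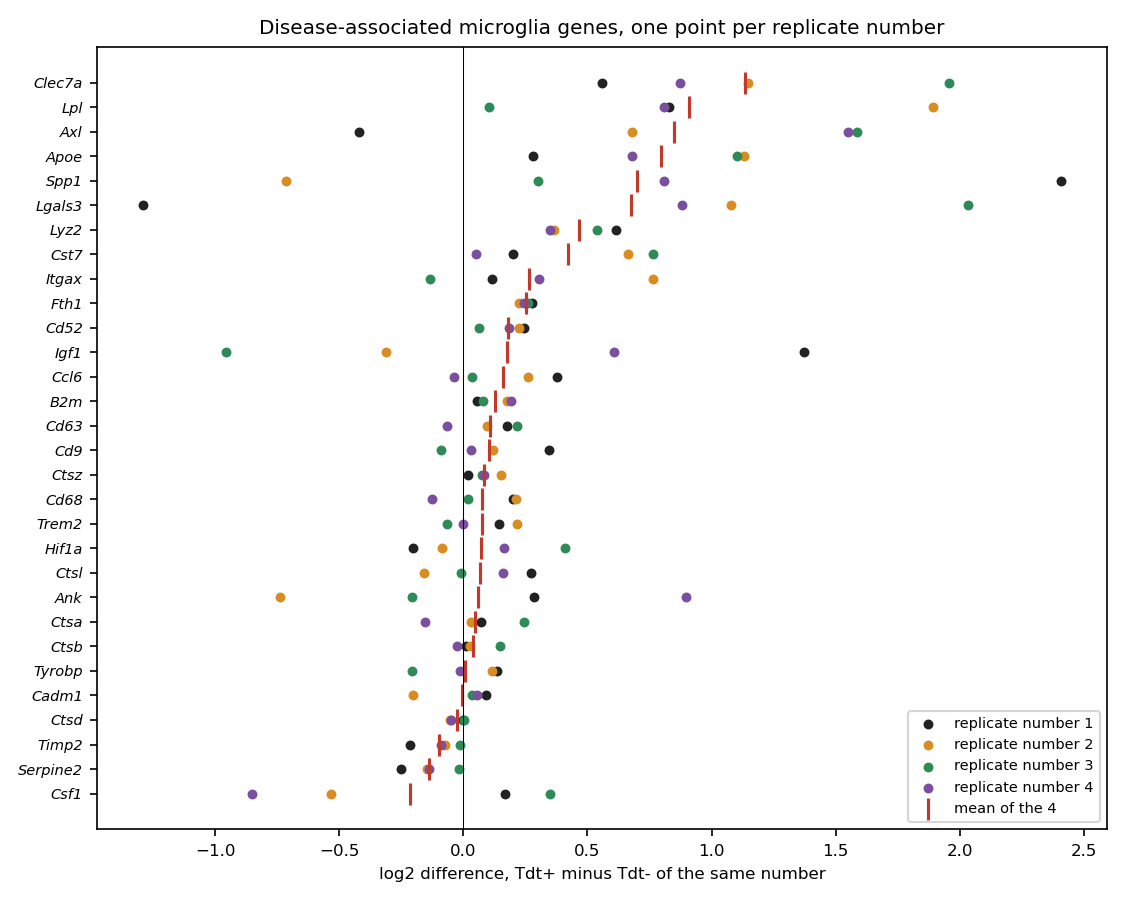
Log2 difference (Tdt+ minus Tdt-, horizontal axis) of each tested DAM gene within each of the 4 replicate numbers, with the mean as a red bar. The 4 points of Apoe, Lyz2, Fth1 and Clec7a all lie right of 0, whereas those of Spp1, Lgals3 and Igf1 fall on both sides.

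Most homeostatic genes had small negative differences. All 26 members found in the table were tested, of 28 listed, with 4 above 0 and 22 below and a median log2 difference of -0.06. At an unadjusted p under 0.05, 0 were higher and 3 lower, and 7 were lower in every pair. The 3 were Upk1b, Fcrls and Selplg. Upk1b, a tetraspanin first described in bladder epithelium, held 56.5, 49.0, 48.0 and 44.2 TPM in Tdt+ libraries 1 to 4, against 73.2, 93.2, 98.4 and 87.1 TPM in Tdt- libraries 1 to 4. All Tdt+ libraries lay below all Tdt- libraries, as in 1.51% of all genes, with a log2 difference of -0.82 ± 0.16 (limma adjusted p 0.721), and contralateral microglia averaged 88.0 TPM. Fcrls, an Fc receptor-like gene restricted to microglia in the mouse brain, averaged 3604 TPM in Tdt+ and 4039.8 TPM in Tdt- libraries, at -0.16 ± 0.05, and Selplg, a ligand of selectins, averaged 5969 TPM in Tdt+ and 6542 TPM in Tdt- libraries, at -0.13 ± 0.04. Of the other homeostatic genes, Mef2c, a transcription factor, was at -0.17, Tmem119 was at -0.08, Cx3cr1 (the fractalkine receptor) at -0.09 and P2ry12 at -0.05. In a bulk library fewer cells of a state and less RNA per cell cannot be told apart, for these and all other genes.

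**Figure D3:**
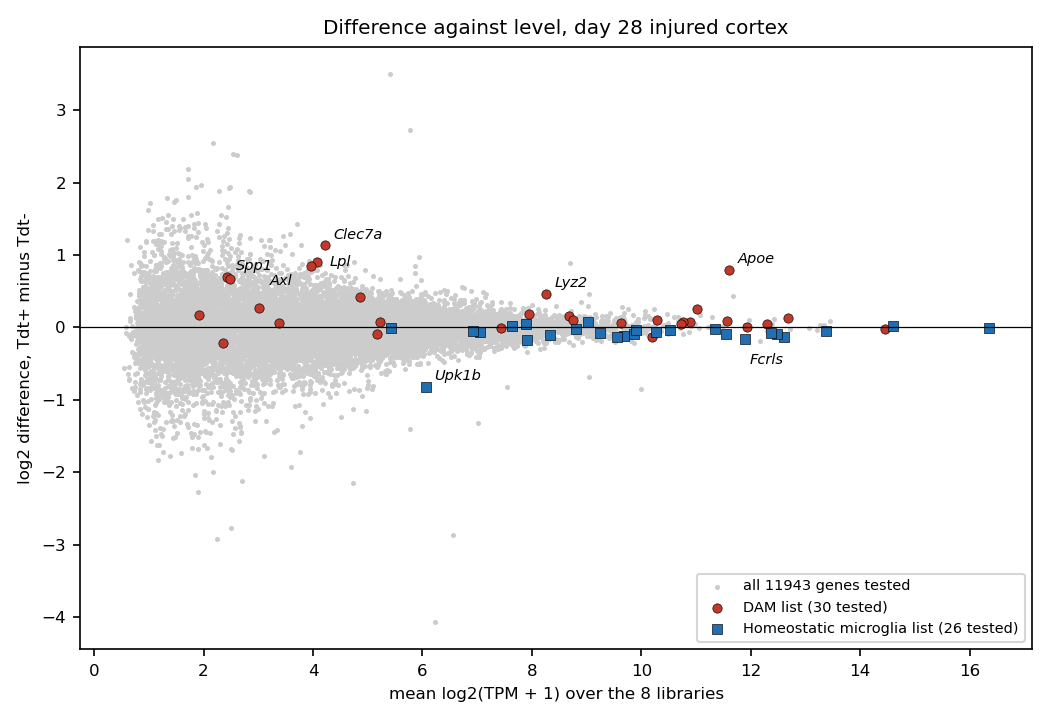
Log2 difference (Tdt+ minus Tdt-, vertical axis) against mean log2(TPM + 1) over the 8 libraries (horizontal axis) for all genes tested, with DAM genes as red circles and homeostatic genes as blue squares. Apoe stands apart from genes of its own level at 0.80, Upk1b lies at -0.82, and most other homeostatic genes lie just below 0.

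MHC class I genes, which present peptides from inside the cell, had 14 of 15 members tested, with 11 above 0 and 3 below and a median of 0.13. There were 3 higher and 0 lower at an unadjusted p under 0.05, against 2.44% and 2.8% of all genes. H2-Q6 held 21.5, 25.2, 12.03 and 21.7 TPM in Tdt+ libraries 1 to 4, against 6.71, 7.74, 9.77 and 9.40 TPM in Tdt- libraries 1 to 4, without overlap, at 1.13 ± 0.30 (limma adjusted p 0.827). H2-K1, a classical heavy chain, held 976, 1006, 832 and 994 TPM in Tdt+ libraries against 799, 799.6, 804 and 769 TPM in Tdt- libraries, also without overlap, at 0.26 ± 0.07. Reads of H2-Q6, H2-K1 and H2-Q7 can be shared between near-identical copies, so their split between genes is uncertain. H2-Q7 was at 0.17, and the light chain B2m, which has no such copy, at 0.13 ± 0.04 and higher in 4 of 4 pairs. B2m is also on the DAM list and was counted there, so the lists are not separate evidence for it.

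Interferon response genes had 27 of 28 members tested, with 20 above 0, 7 below and a median of 0.14, and 1 higher and 0 lower at an unadjusted p under 0.05. Without the libraries numbered 1 the median was 0.29 and 4 members were higher by that mark. In the fit of all 8 libraries that gene was Zbp1, a sensor of nucleic acids, with 2.25, 11.5, 5.63 and 2.71 TPM in Tdt+ libraries 1 to 4 against 0.85, 1.23, 3.39 and 0.72 TPM in Tdt- libraries 1 to 4, at 1.25 ± 0.45 (limma adjusted p 0.919). Irf9, a subunit of the factor that type I interferon activates, averaged 72.3 TPM in Tdt+ and 56.4 TPM in Tdt- libraries, at 0.35 ± 0.16. The antiviral genes Mx1 and Oas2 were at 1.44 ± 0.67 and 1.18 ± 0.56 but below 10 TPM in every library, and the ubiquitin-like Isg15 was at 0.20. The 3 largest values on this list thus belonged to genes that averaged under 10 TPM in both groups.

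Lipid handling genes were mixed. Of 22 on the list, which includes Apoe and Lpl, 19 were tested, with 11 above 0 and 8 below and a median of 0.11. At an unadjusted p under 0.05, 3 were higher, Apoe and Lpl among them. The cholesterol exporters Abca1 and Abcg1 were at -0.03 and 0.00 and the lipid droplet coat gene Plin2 at -0.28 ± 0.14. Cholesterol biosynthesis had 11 of 17 tested members above 0 and a median of 0.06. Lss was at 1.25 ± 0.58, largely through number 2, with 18.7 TPM in Tdt+ library 2 against 0.49 TPM in Tdt- library 2. Without number 2 it was at 0.43. Fdft1 was at -0.51 ± 0.35. Fdft1 encodes squalene synthase and Lss lanosterol synthase.

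Lysosome genes lay close together, with 19 of 25 tested members above 0 and a median of 0.05. Ctss, a protease of antigen processing, averaged 11534 TPM in Tdt+ and 10809 TPM in Tdt- libraries without overlap, at 0.09 ± 0.04, and Ctsh was at 0.13 ± 0.06. Complement had 9 of 12 tested members above 0, 0 with an unadjusted p under 0.05 and a median of 0.04. C1qc, a chain of the first complement component, was at 0.44 ± 0.21 with 1144 TPM in Tdt- library 1 against 2153 to 5375 TPM in the other Tdt- libraries, while its partner chains C1qa and C1qb were at 0.04 and 0.03. The anaphylatoxin receptor C5ar1 was at 0.20 ± 0.11 and higher in 4 of 4 pairs.

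Inflammatory mediators showed opposite values within the list. Of 30 genes 20 were tested, with 11 above 0 and 9 below, a median of 0.04, and 1 higher and 3 lower at an unadjusted p under 0.05. Ccl4, a chemokine for monocytes and T cells, held 19.5, 9.87, 16.1 and 5.55 TPM in Tdt+ libraries 1 to 4, against 35.2, 45.1, 41.4 and 5.56 TPM in Tdt- libraries 1 to 4, at -1.05 ± 0.32 (limma adjusted p 0.919). The pair numbered 4 was level and low, and the difference came from the other 3. The monocyte chemokine Ccl2 was at -1.25 ± 0.43 and the cytokine Il1a at -0.43 ± 0.17. Il1a held 29.0 to 33.4 TPM in Tdt+ and 41.9 to 45.6 TPM in Tdt- libraries, without overlap. Ccl5, a T cell chemokine, was the 1 higher gene, with 33.4, 3.01, 20.2 and 3.51 TPM in Tdt+ libraries 1 to 4 against 8.28, 0, 0 and 5.86 TPM in Tdt- libraries 1 to 4.

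The remaining lists had medians from -0.03 to 0.11. In the developmental microglia list, 15 of 19 tested members were above 0 with a median of 0.11; it shares Clec7a, Lpl, Spp1 and others with the DAM list and is not separate evidence. Immediate early genes, which respond to stimulation within minutes, including that of tissue dissociation, had 5 of 13 tested members above 0. Nr4a1 was at 0.58, 0, 0 and 0.28 TPM in Tdt+ libraries 1 to 4, against 8.69, 2.41, 3.93 and 1.00 TPM in Tdt- libraries 1 to 4. Every Tdt+ value was under the filter of 1 TPM, so Nr4a1 was tested only through its Tdt- libraries. Its log2 difference was -1.83 ± 0.49, and -3.80 to -0.72 over the alternatives that kept all libraries and tested it. Dusp1 was at -0.54 ± 0.38. Phagocytosis receptors had 12 of 17 above 0, with Axl (above) and the lysosomal receptor Scarb2, at 0.25 ± 0.13, first by p. For TGF-beta signalling 8 of 15 were above 0, with Smad2 at 0.35 ± 0.21 and Skil at 0.11 ± 0.10. MHC class II had 3 of 6 above 0, with H2-Ab1 at -0.33 ± 0.35 and Cd74 at 0.22 ± 0.27. Cell cycle had 7 of 14, with the replication helicase gene Mcm2 at 1.06 ± 0.45 and Ccne2 at -0.92 ± 0.45, both below 12 TPM in every library. Glycolysis had 9 of 17, with Gapdh at -0.21 ± 0.09 and Hk1 at -0.90 ± 0.38, and oxidative phosphorylation 11 of 24, with Cox7a2 at 0.34 ± 0.15.

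**Figure D4:**
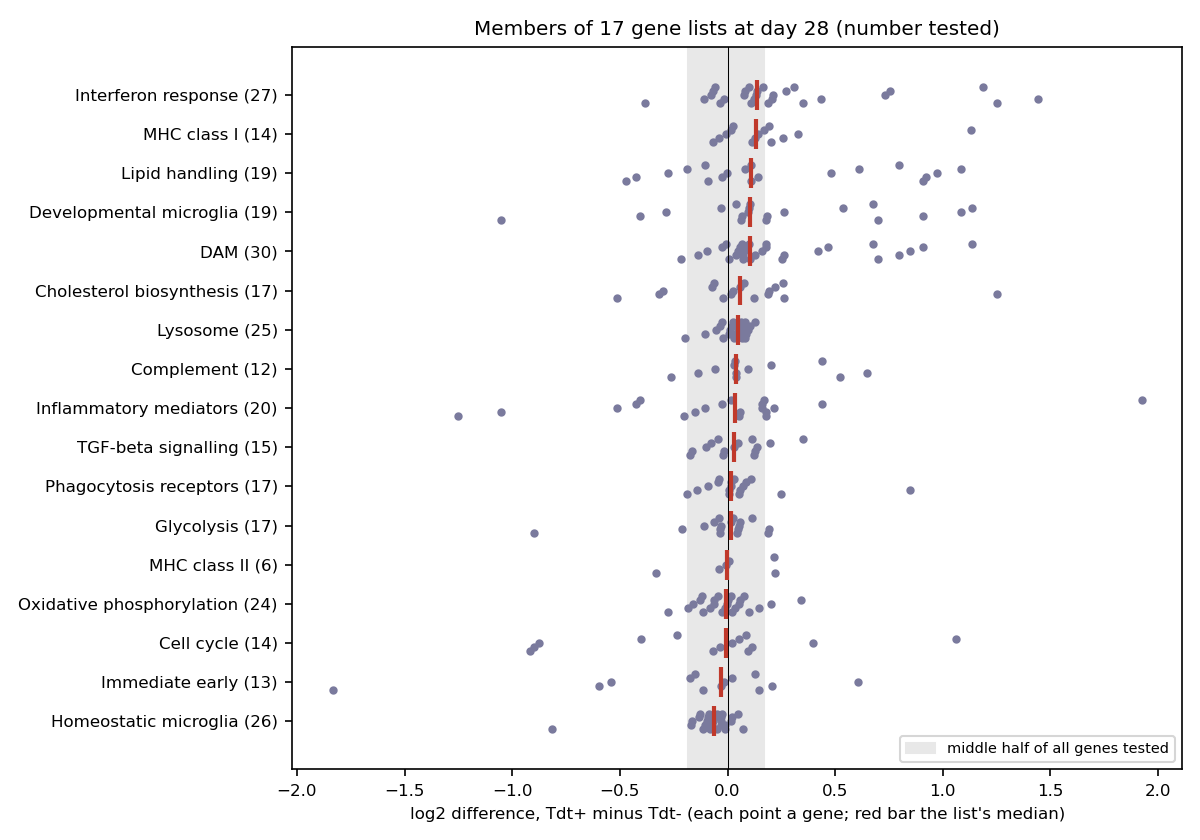
Log2 difference (Tdt+ minus Tdt-, horizontal axis) of every tested member of 17 gene lists, 1 row per list, ordered by the list's median (red bar), with the range between the quartiles of all genes shaded. In the fit of all 8 libraries every median lies inside the shaded range, between -0.06 (homeostatic) and 0.14 (interferon response).

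Over all genes tested, on a list or not, the groups did not overlap in 122 with Tdt+ above (1.02%) and 180 with Tdt+ below (1.51%). Of these, 76 and 116 had a mean of 10 TPM or more in 1 group and were neither predicted, mitochondrial, ribosomal nor antigen receptor genes, and the 10 of them with the largest differences on each side are named. On the higher side the largest was Rmdn2, a regulator of microtubule dynamics, with 10.8, 6.77, 23.5 and 13 TPM in Tdt+ libraries 1 to 4 against 0.68, 6.48, 2.25 and 0 TPM in Tdt- libraries 1 to 4, at 2.40 ± 0.55 (limma adjusted p 0.827). Contralateral microglia averaged 9.95 TPM of Rmdn2, nearer the Tdt+ than the Tdt- mean, but ranged from 1.47 to 17.5 TPM, across values of both groups. The others were Htatip2 (1.14), H2-Q6 (above), the zinc finger gene Zbtb43 (1.05), Znrd1as (1.01), Zbtb8os (0.91), Pink1 (0.87), the noncoding RNA Snhg17 (0.86), Magohb of the exon junction complex (0.82) and the small GTPase-like Rabl3 (0.81). Znrd1as is an antisense transcript, and without stated strand its reads cannot be told from those of its partner. Pink1, the kinase that marks damaged mitochondria for removal, held 14.7 to 25.8 TPM in Tdt+ and 5.81 to 12.3 TPM in Tdt- libraries. Contralateral microglia averaged 19.0 TPM of it and ranged from 11.0 to 26.9 TPM, which reaches into the Tdt- range.

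On the lower side the largest was Nsun6, an RNA cytosine methyltransferase, with 8.58, 13.1, 10.5 and 4.55 TPM in Tdt+ libraries 1 to 4 against 25.8, 18.9, 17.3 and 21.3 TPM in Tdt- libraries 1 to 4, at -1.16 ± 0.31 (limma adjusted p 0.827). Its contralateral mean was 6.89 TPM, with a range of 3.37 to 9.12 TPM that lay below every Tdt- library. The others were the TNF receptor family member Tnfrsf14 (-1.16), the repair factor Ercc8 (-1.09), Ccdc191 (-1.003), Rnaseh2a, the catalytic subunit of RNase H2 (-0.95), the deubiquitinase Mindy2 (-0.91), Prkrip1 (-0.91), the replication origin subunit Orc6 (-0.90), the cofilin kinase Limk1 (-0.89) and the basement membrane protein Nid2 (-0.86). Orc6 held 8.80 to 17.6 TPM in Tdt+ and 23.7 to 40.9 TPM in Tdt- libraries. Apart from H2-Q6 none of the 20 is on a gene list used here.

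The same pair of groups was measured at day 7 (3 Tdt+ and 3 Tdt- libraries) and at day 28 after LPS, a bacterial stimulus (4 and 4). The animals of both day 28 tables were at postnatal day 34. The day 7 animals were younger, by as many days as lie between day 7 and day 28 after injury. Values at day 7 and day 28 thus differ in animal age as well as in time after injury. The part of age in them was not tested. No library is shared between the 3 tables, which were normalized separately, so their values stand side by side and no test was made between them. After LPS 80 of 12493 genes passed by limma with the replicate block, which is 0.64% of them, with 64 higher and 16 lower in Tdt+. With no block 1 passed, and with 1 replicate number left out 15 (number 3) to 46 (number 4) passed. At day 7 there were 3 of 11874, or 0.0253%.

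Apoe was positive in all 3 tables, at log2 differences of 0.97 ± 0.15 at day 7, 0.80 ± 0.12 at day 28 and 0.37 ± 0.11 after LPS, with adjusted p of 0.196, 0.407 and 0.236 by limma. At day 7 its mean was 53724 TPM in Tdt+ and 27854 TPM in Tdt- libraries, and after LPS 3687 TPM in Tdt+ and 2893 TPM in Tdt- libraries. Spp1 was at 3.09 ± 0.47 at day 7, where it averaged 766 TPM in Tdt+ and 133 TPM in Tdt- libraries, and at 0.50 ± 0.11 after LPS (adjusted p 0.196 and 0.140 by limma). The gene behind the label was thus far higher in labelled cells at day 7 than at day 28 without LPS, where it averaged 10.9 TPM in Tdt+ libraries. After LPS Spp1 averaged 280 ± 258 TPM in Tdt+ and 180 ± 130 TPM in Tdt- libraries (SD, n = 4 each), and the groups overlapped. With no block its adjusted p after LPS was 0.99988 by limma. Lyz2 was at 0.60 at day 7, 0.47 at day 28 and 1.197 after LPS, where it passed (adjusted p 0.0037 by limma).

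Other genes named at day 28 varied in whether they had a like value elsewhere. Clec7a was at -0.12 at day 7 and 0.54 after LPS, Lpl at -0.27 and 0.15, and H2-Q6 at -0.66 and 0.54. Upk1b was not tested at day 7 and was at -1.08 after LPS (adjusted p 0.274 by limma). There it averaged only 2.48 TPM in Tdt+ and 6.56 TPM in Tdt- libraries, with overlap, against 49.4 and 88.0 TPM at day 28. Fcrls was at -0.02 at day 7 and -0.38 after LPS. Nr4a1 was at 0.29 and -0.84, with group means of only 0.88 to 2.41 TPM at day 7 and after LPS. Ccl4 was positive after LPS, at 0.93 with an adjusted p of 0.0227 by limma, against -1.05 at day 28. The difference between these values was not tested. Ccl5 was at -0.66 at day 7, 1.92 ± 0.65 at day 28 and 1.84 ± 0.18 after LPS (adjusted p 0.00575 by limma). Its day 28 value was 1.05 to 3.47 over the alternatives that kept all libraries, and some Tdt- libraries held 0 TPM. It averaged 15.0 TPM in Tdt+ and 3.54 TPM in Tdt- libraries at day 28, against 1941 and 606 TPM after LPS. Rmdn2 and Nsun6 were at -1.67 and -0.82 at day 7 and at 0.40 and 0.29 after LPS, so that neither kept its day 28 direction in both.

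**Figure D5:**
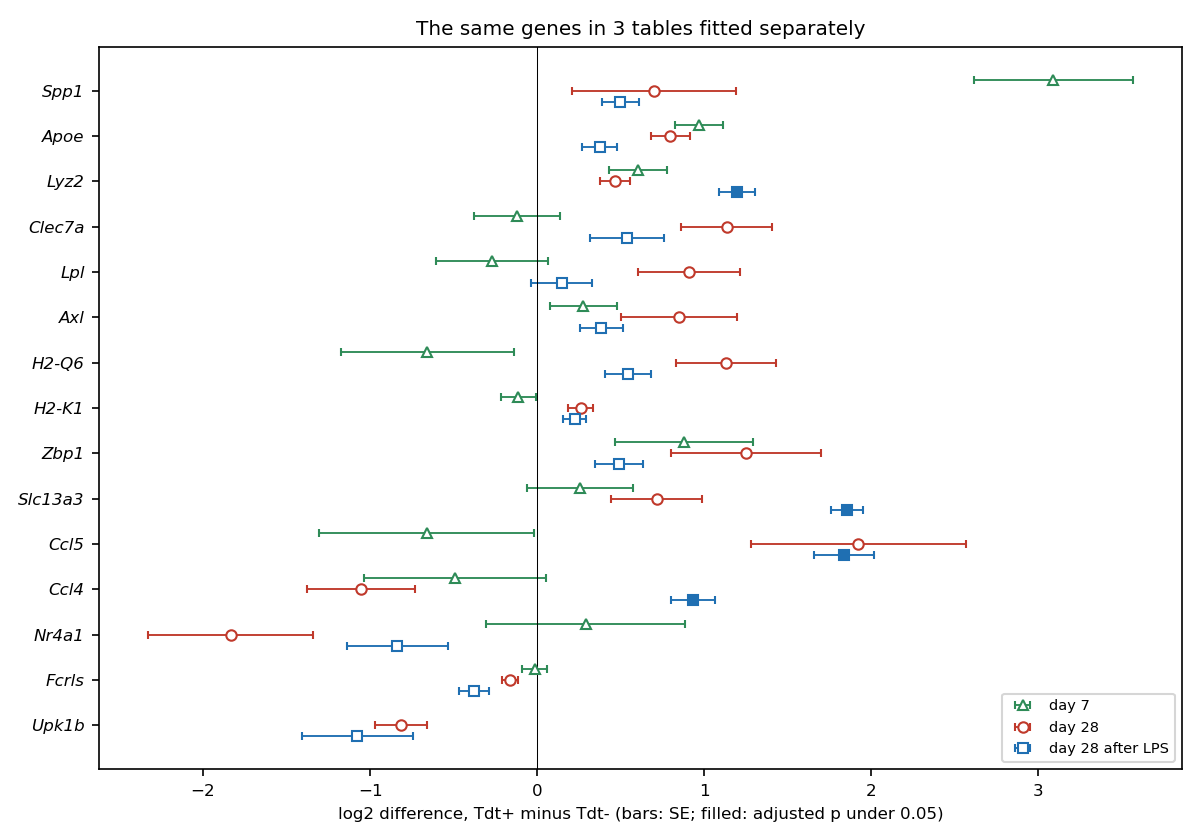
Log2 difference (Tdt+ minus Tdt-, horizontal axis, bars SE) of 15 genes at day 7 (green triangles), day 28 (red circles) and day 28 after LPS (blue squares), each table fitted on its own. Filled symbols mark an adjusted p under 0.05, which occur only after LPS among these genes (Lyz2, Slc13a3, Ccl5 and Ccl4), and Apoe lies right of 0 in all 3. Nr4a1 was tested at day 28 through its Tdt- libraries only.

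Of the 64 genes called higher after LPS, 41 were expressed enough to be tested at day 28 without it. There 22 were above 0 and 19 below, with a median of 0.01, and 3 were higher and 2 lower at an unadjusted p under 0.05. Of the 16 called lower after LPS, 14 were tested, with 5 above 0, 9 below and a median of -0.04. Among the 8 with the largest LPS values, Gm49683 and the B cell chemokine Cxcl13 were at 0 TPM in all 8 day 28 libraries, while Cd38, the siderophore binder Lcn2 and the complement component C3 reached at most 0.21, 0.31 and 4.33 TPM in any. Slc13a3, a transporter of dicarboxylates, was expressed without LPS: it held 19.8, 13.9, 19.1 and 21.5 TPM in Tdt+ libraries 1 to 4 against 7.5, 12.7, 11.7 and 11.97 TPM in Tdt- libraries 1 to 4. Its groups did not overlap, at 0.71 ± 0.27 (limma adjusted p 0.932), against 1.86 ± 0.10 after LPS (adjusted p 0.000243 by limma). The complement regulator Cfp was at 0.65 ± 0.38 and higher in 4 of 4 pairs at day 28, against 1.66 after LPS.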

How the data were processed

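Bulk RNA of sorted microglia was analysed from deposited tables of TPM. Per the submitters' processing notes, reads went through cutadapt 2.10, STAR 2.7.5c and RSEM 1.3.3, the build was GRCm38, and edgeR 3.32.0 is also named there; the deposited TPM values were made by the authors, 1 table for day 28, 1 for LPS and 1 for day 7. The contralateral values are context, taken from the Tdt- columns of that side; another 7 columns could be tied to none of the samples (4 are in the day 28 table) and were not used. Other files were not analysed here.

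Genes with at least 1 TPM in at least 4 of the 8 libraries were kept, and log2(TPM + 1) was fitted with limma 3.58.1 in R 4.3.3 (intensity trend, replicate number as block, Benjamini-Hochberg adjustment over all genes tested). Folds on this scale understate changes of low genes. The block was part of the definition of the comparison. Residuals of same-numbered libraries correlated at 0.03 to 0.20 at day 28, so the numbers were not shown to pair samples there by a minimum of 0.1 for every pair; after LPS they correlated at 0.13 to 0.56, and at day 7 at 0.04 to 0.12. The fit was tested on simulated data. TPM keeps no depth, so no interval for counting error is given.

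The gene lists, the comparison and the named genes were chosen with earlier results of these data known. Named are Spp1 and Apoe, the members of each list with the 2 smallest p-values (none was called), the 10 largest differences on each side among genes without overlap and with 10 TPM or more in 1 group (leaving out genes that are only predicted, encoded by mitochondria, of the ribosome, or of antigen receptors), and 8 genes called after LPS; other list members were named after their values were seen, and a few genes are not reported here. Alternatives are other pseudocounts, filters, normalizations and variance settings, the contralateral libraries in the fit, no block and leaving out libraries. Gene positions are from RefSeq (GRCm38.p6).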

Additional observations from a re-analysis of the deposited data

Results flagged for a closer look

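In each group of 4, named genes were examined for a library whose gap to its nearest neighbour exceeded the share of the whole range that Dixon's test allows at 95%, on the log2 scale (which chance meets in about 1 of 20 groups). Of 108 groups of 4 with a library of at least 1 TPM, 12 were marked.

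Apoe was 2808 TPM in Tdt- library 1, against 2215 to 2280.4 TPM in the other Tdt- libraries. Clec7a was 6.52 TPM in Tdt- library 4 (others 13.4 to 14.7 TPM), and Ccl4 was 5.56 TPM there (others 35.2 to 45.1 TPM). H2-K1 was 832 TPM in Tdt+ library 3 (others 976 to 1006 TPM) and 769 TPM in Tdt- library 4 (others 799 to 804 TPM). Slc13a3 was 7.5 TPM in Tdt- library 1 (others 11.7 to 12.7 TPM). Beyond the lists, Htatip2 was 11.7 TPM in Tdt+ library 4 (others 17.1 to 17.3 TPM), Limk1 was 6.64 TPM there (others 4.40 to 4.61 TPM), and Zbtb43 was 3.37 TPM in Tdt- library 4 (others 7.11 to 8.08 TPM). In Tdt+ library 3 Magohb was 14.7 TPM (others 17.5 to 17.8 TPM) and Orc6 was 8.80 TPM (others 16.9 to 17.6 TPM). Tnfrsf14 was 0.72 TPM in Tdt+ library 1 (others 5.53 to 7.41 TPM).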

How the results depend on the processing

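With no replicate block 0 genes were called at day 28 and 481 had an unadjusted p under 0.05; the numbers are not shown to pair the samples at day 28, although 7 of 8 libraries correlated best with their own number. After LPS, where every same-numbered correlation passed the minimum of 0.1, 1 gene was called with no replicate block, against 80 with it. Number 1 correlated at 0.131 there, below the largest value between different numbers, 0.145, and shared animals are not stated. In the 11 alternatives that kept all day 28 libraries the count of calls was 0 and the adjusted p of Apoe was 0.0987 to 0.924. Leaving out libraries gave 0 to 2 calls at day 28, 15 to 46 after LPS and 0 to 3 at day 7, the last 2 chosen after seeing the data. Day 28 calls were Apoe and Gm44364 without both libraries numbered 1, Gm28661 and Gm47327 without number 3, and Gm7846, Gm17122 or Gm28661 without Tdt+ library 1, 2 or 3 and no block. On the log2 scale the ranges over left-out libraries were 0.69 to 0.97 for Apoe, -0.048 to 1.23 for Spp1, -0.66 to 0.16 for H2-Ab1 (0.0073 without Tdt+ library 4 and -0.59 without number 2) and -0.0045 to 0.23 for Skil, and these last 3 changed sign. Over 54 named genes 1212 of 1217 values kept direction and call. No named gene was called in the fit of all 8 libraries, and most were named for small p or no overlap there. That count thus follows largely from how the genes were named and does not show that their values are stable. The median of DAM genes was 0.03 to 0.19 that of homeostatic genes -0.08 to -0.04 and that of interferon genes 0.11 to 0.29 over all settings, with 3 to 8 DAM genes and 0 to 4 interferon genes (3 with no replicate block) higher at an unadjusted p under 0.05. The cause of these shifts was not tested. Depth is unknown, and many genes under 30 TPM varied several-fold between libraries of 1 group.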

Other observations

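The genes named here lie outside the lists, ranked 10, 13 and 14 of all genes by p, and were chosen after their values were seen. Mrpl2, a protein of the mitochondrial ribosome, averaged 84.2 TPM in Tdt+ and 44.2 TPM in Tdt- libraries (log2 difference 0.85). Ampd2, an enzyme of purine metabolism, averaged 24.4 TPM in Tdt+ and 44.4 TPM in Tdt- libraries (-0.86). Irf3, the factor that starts interferon transcription after sensing of nucleic acids, averaged 168 TPM in Tdt+ and 121 TPM in Tdt- libraries (0.46). Their limma adjusted p lay between 0.734 and 0.827 (n = 4 each).

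The predicted gene Gm28661 had the most negative value among genes of at least 30 TPM, with 11.6, 2.97, 302 and 6.57 TPM in Tdt+ libraries 1 to 4 against 207, 338, 246 and 510 TPM in Tdt- libraries 1 to 4 (log2 difference -4.06, limma adjusted p 0.721), and Tdt+ library 3 lay within the Tdt- range. The mitochondrial gene mt-Nd3 had the most positive, at 92 to 264 TPM in Tdt+ libraries and 133, 0, 0 and 186 TPM in Tdt- libraries 1 to 4.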
